A study of Mus musculus with 29 samples.

Results

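Ehf, Elf3, Sox9, Grhl2, Klf5, Gata6, Hnf4a and Foxa2 encode transcription factors of gastric and other glandular epithelium. They were examined in the peritoneum of mice bearing YTN16 gastric cancer. Members were the rows of the count table with these symbols, and all 8 were found among its 24421 genes. They were described in 29 libraries, 1 per mouse, in 7 groups. Their levels varied with those of other epithelial genes in the library. In the cured mice between 0.169% (Hnf4a) and 20.9% (Gata6) of the untreated mean was left.

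YTN16 is a mouse gastric cancer line that was implanted into the peritoneal cavity of female C57BL/6J mice. Mice received anti-PD1, anti-CTLA4, both antibodies (dual ICI, immune checkpoint inhibitor treatment) or PBS (untreated), and peritoneum was collected on day 21 or day 35. The groups were 5 untreated and 5 dual ICI mice on day 21, and 5 untreated, 5 anti-PD1, 4 anti-CTLA4 and 5 dual ICI mice on day 35. The labels of the dual ICI mice on day 35 give no outcome. Their replicate numbers were taken as the mouse numbers of the study, which makes mice 1 and 5 uncured (n = 2) and mice 2, 3 and 4 cured (n = 3). All groups share the implanted line, the host strain and the route. The labels call the samples tumor tissue, whereas the methods of the study describe stripped peritoneum with or without nodules, so host muscle, fat and connective tissue were sequenced with the tumor. In such bulk tissue, fewer epithelial cells and less RNA per epithelial cell cannot be told apart.

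Epithelial transcription factors act in layers. FOXA, GATA and HNF4 factors open and occupy enhancers of the gut endoderm, ETS factors of the epithelial subfamily (EHF and ELF3) and KLF5 keep glandular genes active, GRHL2 maintains cell junction genes, and SOX9 marks the progenitor zone of gastric and intestinal glands. Several of them bind each other's genes, and in gastric cancer GATA6, KLF5, HNF4A and SOX9 are known as lineage factors of the tumor cells. Outside epithelium, Gata6 is also a regulator of resident peritoneal macrophages and is expressed by mesothelium, Sox9 is the master factor of cartilage, and Klf5 is expressed in vascular and other smooth muscle.

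Because the members moved together, the promoter sequences at hand are shown first, searched for the short motifs that these families of factors are known to bind. The RefSeq promoter table for GRCm38.p6 held 3 of the 8 members (Elf3, Foxa2 and Hnf4a) in 6 windows, each running from 250 bases before to 50 bases after a start site. Hnf4a has a pair of promoters, whose start sites lie 40298 bases apart in the table. The upstream one is known from stomach and pancreas, and the counts, made per gene, do not separate them. The 4 windows shown are written 5′ to 3′ on the strand of the gene, and capitals mark every match to a searched motif on either strand.
Elf3, minus strand, chr1:135258423-135258722: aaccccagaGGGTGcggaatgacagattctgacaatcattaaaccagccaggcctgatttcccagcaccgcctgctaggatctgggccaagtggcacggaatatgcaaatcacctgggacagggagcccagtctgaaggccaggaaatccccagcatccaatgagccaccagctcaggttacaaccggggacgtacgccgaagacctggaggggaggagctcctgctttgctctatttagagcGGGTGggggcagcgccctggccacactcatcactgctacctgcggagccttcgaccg
Foxa2, minus strand, chr2:148046920-148047219: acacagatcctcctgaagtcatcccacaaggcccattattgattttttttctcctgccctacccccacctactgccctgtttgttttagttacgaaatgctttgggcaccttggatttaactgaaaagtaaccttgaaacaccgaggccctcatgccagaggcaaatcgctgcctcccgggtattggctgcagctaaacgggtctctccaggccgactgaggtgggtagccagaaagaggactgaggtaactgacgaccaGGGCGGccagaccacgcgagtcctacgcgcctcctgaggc
Hnf4a, upstream promoter, plus strand, chr2:163506607-163506906: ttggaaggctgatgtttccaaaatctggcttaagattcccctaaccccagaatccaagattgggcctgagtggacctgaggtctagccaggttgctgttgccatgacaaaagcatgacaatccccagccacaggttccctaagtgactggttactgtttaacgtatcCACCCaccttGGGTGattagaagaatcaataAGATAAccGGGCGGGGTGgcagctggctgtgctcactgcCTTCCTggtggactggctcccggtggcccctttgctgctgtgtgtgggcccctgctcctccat
Hnf4a, downstream promoter, plus strand, chr2:163546905-163547204: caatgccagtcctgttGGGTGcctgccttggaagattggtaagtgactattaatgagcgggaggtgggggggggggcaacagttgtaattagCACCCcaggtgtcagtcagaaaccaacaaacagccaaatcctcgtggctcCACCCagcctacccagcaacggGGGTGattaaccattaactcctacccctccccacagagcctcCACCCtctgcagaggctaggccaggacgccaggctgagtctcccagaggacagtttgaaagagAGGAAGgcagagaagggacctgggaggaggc

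The upstream Hnf4a window held a GATA match (AGATAA) 52 bases before the start site and a KLF match (GGGCGG) 44 bases before it, which overlaps a CACCC match on the other strand. Of the 32817 promoters of this length in the table, 11.2% held the GATA letters and 35.6% the KLF letters, while CACCC was held by 57.5%, so these matches are common. The window of Elf3 held CACCC on the opposite strand 7 bases before the start site, and the downstream Hnf4a window held CACCC or its complement at 5 places. The short ETS core AGGAAG, present in 35.4% of promoters, was found in both Hnf4a windows. None of the 4 windows held the FOXA motif TGTTTAC (3.65% of promoters), the HNF4 motif CAAAGTCCA (0.475%), the longer ETS motif CCGGAAGT (3.89%), the GRHL motif AACCGGTT (0.146%) or its relaxed form AACNNGTT (4.2%), the SOX motif AACAAT (10.7%) or TATAAA (13.6%). The Foxa2 windows that are not shown held further matches. That at chr2:148045415-148045714 held AGATAA at position -183 from its start site and TTTATA, the reverse complement of TATAAA, at -208. That at chr2:148045899-148046198 held AGGAAG at -114, and both held KLF and CACCC matches. No match says only that the searched letters are not in a window, and a match is a description of sequence, not of binding.

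Libraries held 25989217 to 31219650 counts, and levels are given as TMM-normalized read counts per 1000000 reads (CPM). Several mice stood apart. Anti-PD1 mouse 5 was the lowest of its group in all 8 members, untreated mouse 2 on day 35 in all 8, anti-CTLA4 mouse 2 in all 8, and untreated mouse 2 on day 21 in 7 of 8. The study mentions a cured mouse under anti-PD1, but neither it nor the labels say which mouse that was. Mouse 5 was therefore kept in its group and results are given with and without it. Day 21 and day 35 libraries carry different series of library names, so day and library series cannot be told apart. For the dual ICI mice on day 21 the numbers in these names differ in part from the replicate numbers of the sample titles. Mice are numbered here by the titles.

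**Figure D1:**
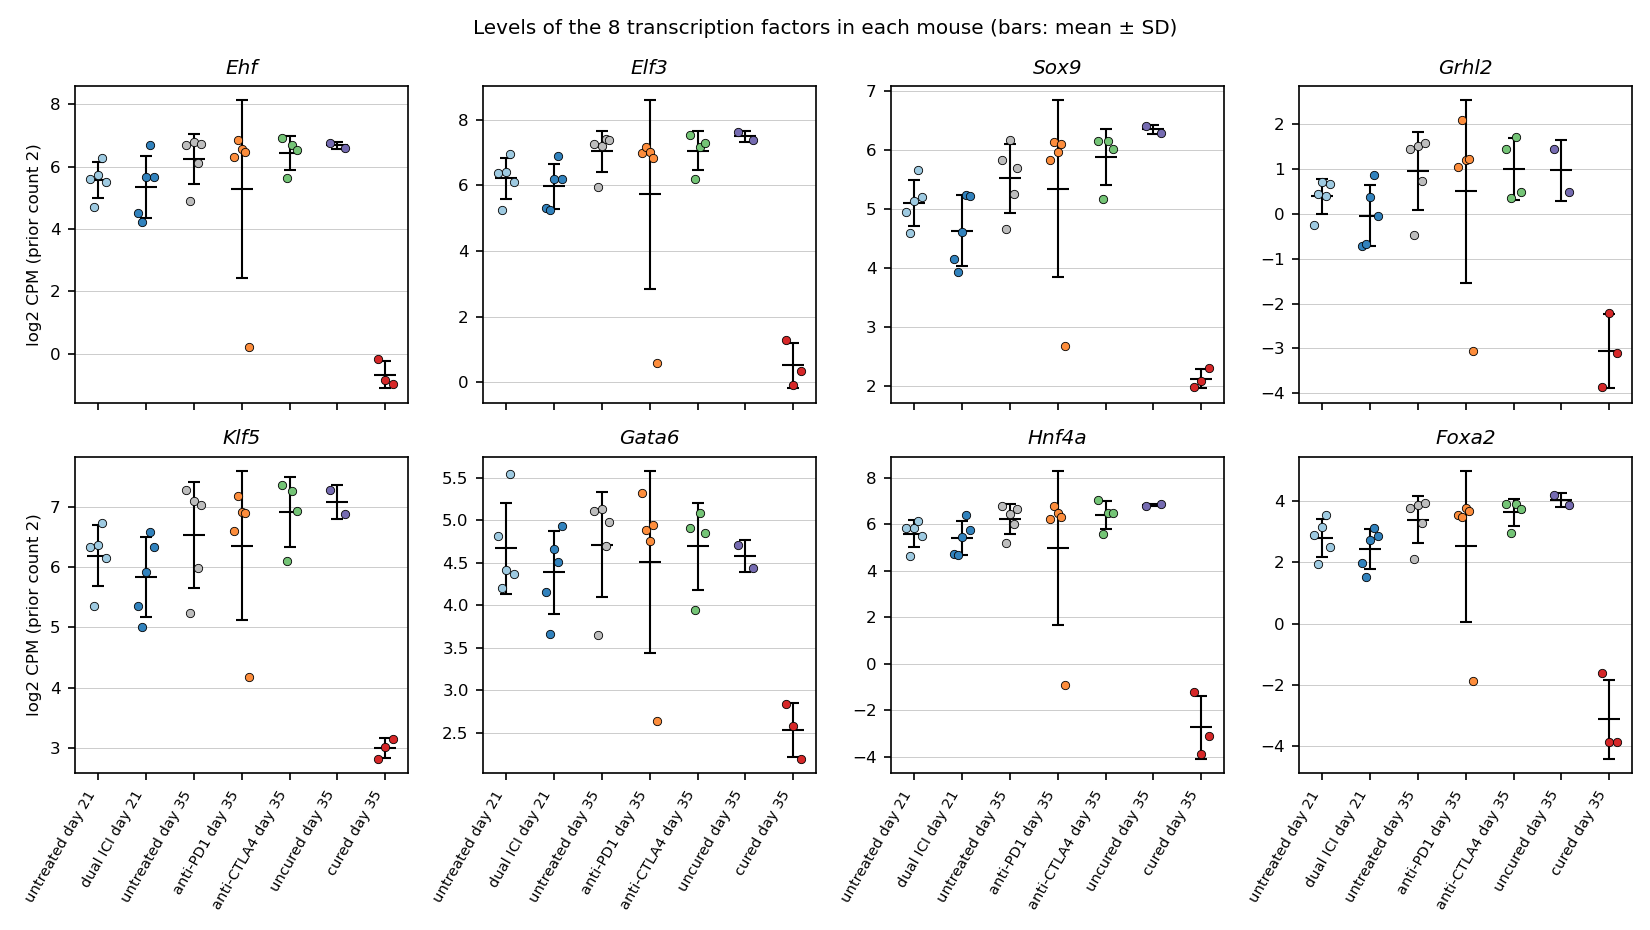
Level of each factor in every mouse, as log2 CPM with a prior count of 2 (y axis), by group (x axis); points are mice, bars are the mean ± SD, and the y axes differ between panels. The 3 cured mice sit below every mouse of the other groups except anti-PD1 mouse 5, and that mouse sits at or near them in all 8 panels.

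Adjusted for the length of annotated exons, Elf3 was the most abundant of the 8, with 62.7 ± 20.1 CPM per kilobase in untreated day 35 mice (SD, n = 5). On this per-length scale Klf5 followed at 20.2 ± 9.85, Hnf4a at 16.6 ± 6.22, Ehf at 15.0 ± 6.17 and Sox9 at 11.8 ± 4.37. Foxa2 at 4.84 ± 1.93 and Gata6 at 4.28 ± 1.44 were lower, and Grhl2 at 0.245 ± 0.112 was the lowest. From Klf5 to Sox9 each neighbour in this order differed by less than the spread between mice, whereas Grhl2 lay far below all others. Over the 7 groups, the mean CPM of all 8 members was lowest in the cured mice and second lowest in the dual ICI mice on day 21, and for 6 of 8 it was highest in the uncured mice. Adjacent group means lay mostly within 1 SD of each other, except for the step down to the cured mice in all 8 and the step from the uncured to the anti-CTLA4 mice for Sox9 and Foxa2.

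The comparison of cured with untreated mice on day 35 asked what remained of these factors where the visible tumor was gone. All 8 members fell, with log2 fold changes from -2.23 to -9.17 and adjusted p from 0.000108 to 0.00139 (edgeR quasi-likelihood test, Benjamini-Hochberg over 15816 genes). The 3 cured and the 5 untreated mice did not overlap in any of the 8. In this comparison 44.7% of all genes tested were called and 26.7% were called lower, and 26.9% were lower without overlap, so a lower call by itself was common. The median log2 fold change was -5.71 over the members and -0.05 over all genes. All 8 calls held in every alternative fit. Beside them, the summed level of 8 skeletal muscle genes ran from 183331 to 211392 CPM in cured and from 29061 to 153552 CPM in untreated mice. The part of this shift in tissue content in the fall of the members was not tested.

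Hnf4a, a nuclear receptor that drives enterocyte, hepatocyte and gastric tumor genes, lies on chromosome 2 (163506808 to 163572910, plus strand, GRCm38). Untreated mice 1 to 5 on day 35 had 111, 36.8, 86.7, 64.7 and 102 CPM. Cured mice 2, 3 and 4 had 7, 0 and 1 counts. With all 3 cured mice, 0.169% of the untreated mean was left, the lowest share of the 8. Its fitted log2 fold change of -9.17 ± 0.71 (SE) rests on few counts and on the prior count, so the pooled counts are given too: untreated mice held 638 times the pooled level of cured mice, with a 95% counting interval of 324 to 1478. Without cured mouse 2, which held 7 of the 8 counts, 0.0302% was left and the fitted log2 fold change was -11.41. The interval covers counting error only, as do all such intervals here. In uncured mice Hnf4a was at 111 and 117 CPM. An antisense gene that overlaps it without sharing exons, Hnf4aos, held at most 6 counts in any library.

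Ehf and Elf3 are ETS factors restricted to epithelium, and both were close to 0 in cured mice. Ehf (chromosome 2, 103263433 to 103303278, minus strand) measured 103, 30.0, 111, 68.5 and 106 CPM in untreated mice 1 to 5 on day 35. In cured mice it measured 0.819, 0.487 and 0.436 CPM, a log2 fold change of -7.14 ± 0.56 (SE, adjusted p = 0.000108 in edgeR). Elf3 (chromosome 1, 135253575 to 135258568, minus strand), whose window is printed above, measured 154, 61.0, 146, 168 and 166 CPM in the same untreated mice. In cured mice it measured 2.35, 0.877 and 1.21 CPM, a log2 fold change of -6.53 ± 0.49. Of the untreated means, 0.694% of Ehf and 1.07% of Elf3 were left. An antisense gene shares exon sequence with Elf3 in the annotation, and without a stated strand setting its reads could not be separated.

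Foxa2, a pioneer factor of foregut endoderm (chromosome 2, 148042877 to 148046969, minus strand), measured 13.7, 4.23, 14.7, 9.67 and 15.1 CPM in untreated mice 1 to 5 on day 35. The cured mice held 5, 0 and 0 counts. Its pooled level in untreated mice was 146 times that in cured mice (counting interval 62.5 to 451), and the fitted log2 fold change was -7.01 ± 0.82 (SE). All 5 counts came from cured mouse 2. Without it the untreated level was 165 times higher if 3 counts are assumed for the other cured mice, which held 0. The lower limit of the counting interval was then 134. The fitted value without cured mouse 2, which depends on the prior count, was -11.30. The order of Foxa2 and Hnf4a in depth of loss is therefore not fixed by these counts. Grhl2, a grainyhead factor that maintains E-cadherin and claudin genes (chromosome 15, 37233036 to 37363569, plus strand), was measured on the fewest reads, between 16 and 99 counts in untreated mice on day 35. Cured mice held 0, 3 and 1 counts of it. The pooled ratio was 33.9 with a counting interval of 13.1 to 125, and the fitted log2 fold change was -4.89 ± 0.80 (SE, adjusted p = 0.00139 in edgeR), or -6.16 without cured mouse 3. At such counts neither the size of its fall nor its rank among the members is precise.

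Sox9, Klf5 and Gata6 also fell but kept a measurable level in every cured mouse. Sox9 (chromosome 11, 112782224 to 112787760, plus strand) measured 56.8, 25.2, 72.5, 38.2 and 51.8 CPM in untreated mice 1 to 5 and 3.89, 4.14 and 4.84 CPM in the cured mice. Klf5, a Krüppel-like factor of proliferating gut epithelium (chromosome 14, 99298691 to 99315036, plus strand), measured 155, 37.6, 137, 63.4 and 131 CPM in untreated and 7.01, 8.09 and 8.81 CPM in cured mice. Gata6, a zinc finger factor of gastric and intestinal endoderm on chromosome 18, measured 34.6, 12.5, 35.002, 25.9 and 31.4 CPM in untreated and 7.06, 5.89 and 4.50 CPM in cured mice. The cured mice lay close to one another in each of the 3 genes, and 8.78% of Sox9, 7.60% of Klf5 and 20.9% of Gata6 was left of the untreated mean. Their log2 fold changes were -3.48 ± 0.34, -3.69 ± 0.48 and -2.23 ± 0.34 (SE). The remaining counts, 76 to 182 per library, were well above the few counts of Hnf4a, Foxa2 and Grhl2.

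Markers of host cell types known to use these 3 factors were also summed. Resident peritoneal macrophage markers (8 of 8 in the table, none at 0) summed to 153 to 197 CPM in cured and 106 to 198 CPM in untreated day 35 mice. Within that list Timd4 (log2 fold change 1.86), Alox15 (2.04) and Lyve1 (0.78) rose, Vsig4 (-3.36) fell, and the other 4 were not called. Smooth muscle markers (6 of 6, none at 0) summed to 6418 to 7218 CPM in cured and 2315 to 8610 CPM in untreated mice, with Smtn higher and Tagln lower among 6 tested. Des, which skeletal muscle also makes, carried this sum with a mean of 6395 CPM in cured mice, where Smtn, Acta2 and Tagln averaged 161, 83.7 and 53.5 CPM. Cartilage markers (7 of 7, none at 0) summed to 169 to 230 CPM in cured and 47.8 to 190 CPM in untreated mice, and none of the 6 tested was called. Sox6, which muscle also makes, carried this sum with a mean of 168 CPM in cured mice, while the cartilage matrix genes Col2a1 and Acan ranged there from 0.194 to 16.7 and from 0.145 to 27.1 CPM. Mesothelium markers (7 of 8 in the table, none at 0) were lower in cured mice, at 40.9 to 166 CPM against 189 to 574, with Msln, Krt14, Wt1 and Upk1b called lower. The log2 fold changes of these markers ran from -4.13 to -0.03 (median -1.24). How much of these sums came from the tumor rather than from mesothelium was not tested. The part of these host cell types in the remaining Sox9, Klf5 and Gata6 was not tested. A gene on the opposite strand whose exons overlap Gata6 (1010001N08Rik) held 5 to 19 counts in cured mice against 93 to 138 of Gata6 itself.

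Other epithelial programs moved with the members. Of 28 other epithelial transcription factors, 26 could be tested, 22 fell and 1 rose in cured mice (median log2 fold change -5.38). Pdx1 (-8.75), a factor of pancreas and duodenum, and Isx (-8.45), a factor of intestine, were among those that fell, and Ovol1, an epidermal factor, rose (1.04). Pdx1 and Isx held at most 3 counts in any cured mouse, so the sizes of their falls are not precise. Of the most abundant in this list, Onecut2 averaged 204 CPM in untreated and 0.765 CPM in cured mice, while Klf4 averaged 50.7 and 60.1 CPM and Ets2 153 and 118 CPM. Gastric genes (10 of 11 tested called lower, Tff2 -9.41, Agr2 -8.50, Cldn18 -8.03) and intestinal or HNF4 target genes (11 of 12 lower, Apob -8.37, Cdh17 -8.25, Mep1a -8.02) fell as well. Tff2 too held at most 3 counts in any cured mouse. The exception among the targets was Anpep (0.53), a peptidase that fibroblasts and myeloid cells also make. Of 7 factors of epithelial-mesenchymal transition, Zeb1 (0.82) and Prrx1 (0.89) rose, Snai1 (-1.21) fell and 4 were not called. Zeb1 is known to oppose Grhl2, and both Zeb1 and Prrx1 are also expressed by stromal cells.

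**Figure D2:**
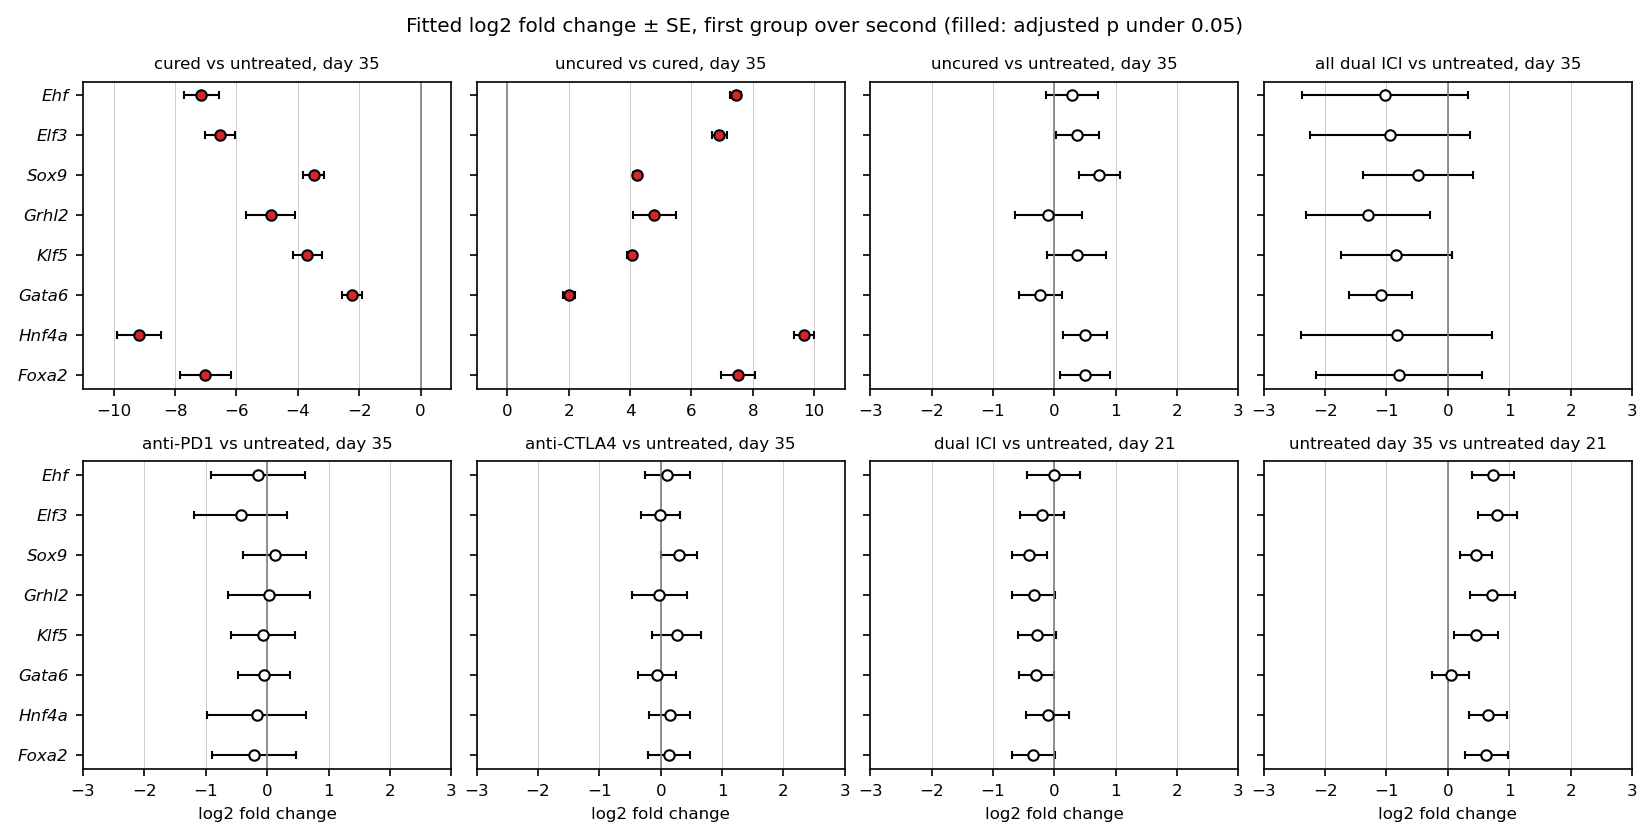
Fitted log2 fold change (x axis) ± SE of each factor in 8 comparisons, first group over second; filled points passed an adjusted p of 0.05 in edgeR, and the first 2 panels have wider axes. All 8 factors are called in the panels that involve cured mice on their own, and none in the other 6.

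The uncured mice were compared with cured and with untreated mice on day 35, to see whether tumor that persisted under dual ICI kept these factors. Against cured mice all 8 were higher, from 2.01 (Gata6) to 9.67 (Hnf4a) on the log2 scale, with no overlap in any of the 8, as for 43.7% of all genes. All 8 were called, with adjusted p from 2.88e-07 to 0.000325 in edgeR, where 70% of genes were called and 36.9% were called higher. Against untreated mice none of the 8 was called, nor any of 16156 genes (0%) in edgeR. At an unadjusted p under 0.05 there were 0 members and 787 genes (4.87%), and DESeq2 called 0 members and 17 genes. The log2 fold changes of the members ran from -0.23 (Gata6) to 0.74 (Sox9).

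Sox9 came nearest to a difference from the untreated mice. It measured 85.0 and 78.7 CPM in the uncured mice, above all 5 untreated mice (25.2 to 72.5 CPM), a log2 fold change of 0.74 ± 0.33 (SE, adjusted p = 0.734 in edgeR). It was the only member without overlap in this direction, and 9.22% of genes tested were higher without overlap. Gata6, in contrast, measured 26.2 and 21.7 CPM, inside the untreated range of 12.5 to 35.002 CPM. Elf3 measured 196 and 166 CPM and Foxa2 18.2 and 14.6 CPM, overlapping the untreated mice. With 2 uncured mice, a difference of the size seen for Sox9 did not pass the test. When all 5 dual ICI mice were taken as 1 group as labelled, log2 fold changes ran from -0.48 to -1.30 with SE from 0.51 to 1.56. With the replicate block the values were larger, down to -4.97 (Hnf4a), -4.09 (Ehf) and -3.94 (Elf3), and over all alternatives they ran from -4.97 to -0.19 without a call. None of the 8 was called (0 at an unadjusted p under 0.05 in edgeR, 0 called in DESeq2), and 0% of 15588 genes was called, against 1071 genes (6.87%) at an unadjusted p under 0.05 and 45 in DESeq2.

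Each single antibody was compared with the same 5 untreated mice, so the comparisons on day 35 share their controls. Under anti-PD1 none of the 8 was called, with log2 fold changes from -0.43 (Elf3) to 0.12 (Sox9). Mouse 5 of this group was far from its companions. It held 9 counts of Hnf4a, 21 of Ehf, 28 of Elf3, 4 of Foxa2 and 1 of Grhl2, and its CPM was 0.523% (Hnf4a) to 19.3% (Gata6) of the mean of the other 4 mice. Its levels were inside the range of the cured mice for 4 members and above it for the other 4, with Klf5 at 18.0 and Sox9 at 6.30 CPM against at most 8.81 and 4.84 CPM in cured mice. Its 8 epithelial reference genes summed to 12.6 CPM, within the 3.78 to 16.0 CPM of the cured mice. Without mouse 5 the remaining 4 anti-PD1 mice differed from untreated mice by -0.12 (Elf3) to 0.40 (Sox9), again with none called (adjusted p = 0.995 for each in edgeR). Across all 15640 genes 0% was called, with 205 (1.31%) at an unadjusted p under 0.05 and 0 in DESeq2.

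Under anti-CTLA4 none of the 8 was called either, with log2 fold changes from -0.06 (Gata6) to 0.30 (Sox9) and SE from 0.29 to 0.44. The 4 mice measured 71.6, 36.0, 71.2 and 65.1 CPM of Sox9 and 132, 48.2, 89.4 and 88.7 CPM of Hnf4a. Mouse 2 was the low one in every member, and the other 3 lay within or slightly above the range of the untreated mice. Of 15781 genes 0% was called, with 128 (0.811%) at an unadjusted p under 0.05 and 0 in DESeq2. No member passed an unadjusted p of 0.05 in either monotherapy with either tool. The SE of these estimates leave room for changes of that size in either direction.

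On day 21 dual ICI was compared with untreated mice at an earlier stage of the disease. All 8 members had lower fitted levels under dual ICI, with log2 fold changes from -0.41 (Sox9) to -0.01 (Ehf), and none was called. No member passed an unadjusted p of 0.05, which 10.7% of genes did, and DESeq2 called 0 of 8. Of all 15503 genes 0.574% was called, most of them higher (73 of 89), among them Cd8a with a log2 fold change of 2.31, and DESeq2 called 492 genes. Sox9 measured 17.6, 15.2, 24.4, 37.9 and 37.2 CPM in dual ICI mice 1 to 5 and 30.8, 24.0, 34.99, 50.8 and 36.7 CPM in untreated mice 1 to 5. Klf5 measured 40.6, 32.2, 60.2, 95.3 and 80.4 CPM under dual ICI and 80.8, 41.0, 82.0, 106 and 70.7 CPM in untreated mice. The groups overlapped in all 8 members, whereas 1.35% of genes were lower without overlap. The interaction of dual ICI with day, which set the uncured mice against untreated mice on day 35 and this comparison on day 21, was positive for all 8 members (0.08 to 1.16) with none called in edgeR or DESeq2. In the study the day 35 mice received more doses than the day 21 mice. The uncured mice were also selected by outcome, and the day 21 mice were not. Day, number of doses and this selection cannot be told apart here. Sox9 had the largest interaction (1.16 ± 0.47, adjusted p = 0.707 in edgeR), and 1 of 8 members passed an unadjusted p of 0.05. Of 16542 genes 0% was called, with 1050 (6.35%) at an unadjusted p under 0.05 and 1 in DESeq2.

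Because epithelial RNA differed between mice, each member was also set against the epithelial score of its own library, the mean log2 CPM of Epcam, Cdh1, Cldn4, Cldn7, Rab25, Spint1, St14 and Esrp1. These genes mark epithelial cells and several are known targets of the members, so the score is not independent of them. On day 21 the score itself differed by 0.06 between dual ICI and untreated mice. Relative to it, all 8 members had lower means under dual ICI, with differences from -0.53 (Sox9) to -0.25 (Hnf4a).

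Over all 15503 genes tested on day 21, 62% had a lower mean on this relative scale. Klf5 and Foxa2 were lower without overlap between the groups, as were 0.89% of all genes. For Klf5 the log2 level minus the score was 1.43, 1.29, 1.16, 1.30 and 1.56 in dual ICI mice 1 to 5 and 1.69, 1.73, 1.77, 1.72 and 1.87 in untreated mice 1 to 5. For Foxa2 it was -1.93, -2.19, -2.03, -2.16 and -1.93 under dual ICI and -1.75, -1.70, -1.43, -1.47 and -1.78 in untreated mice. The mean differences were -0.41 for Klf5 and -0.42 for Foxa2, each with an exact permutation p of 0.00794, the smallest that 5 against 5 can give. For Elf3 (-0.31) and Sox9 (-0.53) the exact p was 0.0159, and for Hnf4a (-0.25) 0.0238. These 5 of 8 members were lower with an exact p under 0.05, as were 2.34% of all genes. All 8 members subtract the same score, so these results are not independent of one another. The all-gene shares include many genes that are not epithelial. The shares among other epithelial genes on this scale were not determined here. After Benjamini-Hochberg adjustment over 32 such tests none passed, with adjusted p of 0.127 for Klf5, Foxa2, Elf3 and Sox9 and 0.152 for Hnf4a. The differences kept their sign with keratins in place of the score and without each mouse in turn, from -0.46 to -0.36 for Klf5 and from -0.47 to -0.37 for Foxa2. Of the epithelial reference genes themselves, 5 of 8 had higher and 3 lower fitted levels under dual ICI on day 21, with log2 fold changes from -0.52 to 0.77 and none called. Lower fitted levels were not particular to the members, whose median was -0.29. Of 24 other epithelial transcription factors, 17 were lower and 7 higher (median -0.26). Of 10 gastric genes, 8 were lower, 1 of them called, and 2 higher (median -0.60). Of 11 intestinal or HNF4 target genes, 7 were lower and 4 higher (median -0.05).

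**Figure D3:**
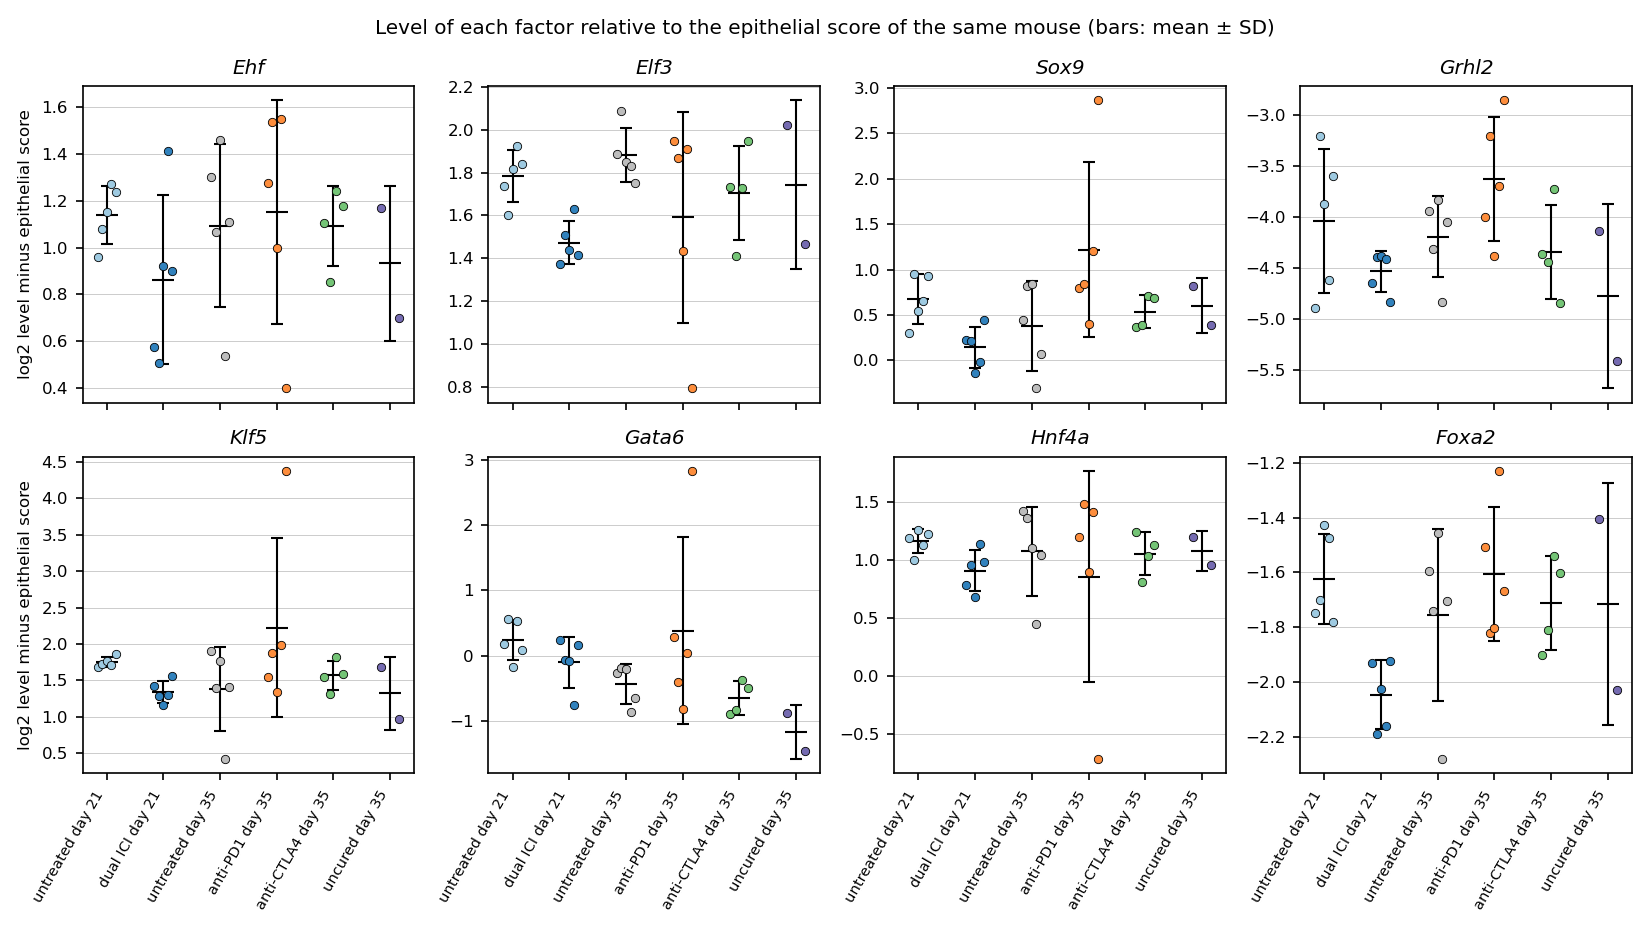
Log2 level of each factor minus the epithelial score of the same mouse (y axis), in 6 groups (x axis); points are mice, bars are the mean ± SD, cured mice are not drawn because their score rests on few counts, and the y axes differ between panels. On day 21 the dual ICI points of Klf5 and Foxa2 lie below all untreated points, and Gata6 is lower on day 35 than on day 21 in untreated mice. In these untreated mice the score itself is 0.72 higher on day 35.

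On day 35 Gata6 was lower relative to the score in the uncured mice, at -0.88 and -1.46, than in the 5 untreated mice, at -0.26, -0.19, -0.20, -0.87 and -0.65. The mean difference was -0.74 with an exact permutation p of 0.0952, which is the smallest that 2 against 5 can give, so this design could not pass 0.05. The score itself was 0.60 higher in the uncured mice (5.75 against 5.15), while the fitted log2 fold change of Gata6 was -0.23. The share of all genes lower without overlap on this scale was not determined here. The other 7 members overlapped between these groups. Within the untreated mice on day 35, mouse 4 had the lowest relative level in 7 of 8 members, an observation made after the values were seen. In that mouse Klf5 was 0.42 above the score against 1.39 to 1.90 in the other 4, while Elf3, at 1.83, was inside their range of 1.75 to 2.09. Under anti-PD1 and anti-CTLA4 no relative level passed an unadjusted exact p of 0.05.

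Untreated mice of day 35 were compared with those of day 21 to follow the untreated disease over time. All 8 members had higher fitted levels on day 35, with log2 fold changes from 0.05 (Gata6) to 0.81 (Elf3). None was called in edgeR, where 10.8% of genes were called and 6.24% were called higher. At an unadjusted p under 0.05 there was 1 of 8 (Elf3) among 30.1% of genes, and DESeq2 called 0 of 8. This result rested on untreated mouse 2 on day 35, whose epithelial reference genes summed to 340 CPM against a group median of 1034 CPM. Without it 6 of 8 members were called higher, among 16.4% of genes: Elf3 (0.99 ± 0.25, SE), Grhl2 (0.95 ± 0.26), Ehf (0.94 ± 0.25), Foxa2 (0.83 ± 0.27), Hnf4a (0.83 ± 0.25) and Sox9 (0.62 ± 0.21), with adjusted p from 0.0142 to 0.0462 in edgeR. That mouse was the lowest of its group in all 8 members, so the larger differences without it follow from leaving it out. Leaving out untreated mouse 4 on day 21 as well, the highest of its group in 7 of 8 members, gave calls for all 8, among 18.5% of genes called higher. This alternative was added after the values were seen, and since the choice of mice widens the difference nothing is read from it.

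Gata6 had the smallest difference over this time. It measured 28.2, 18.3, 21.3, 46.7 and 20.6 CPM in untreated mice 1 to 5 on day 21 and 34.6, 12.5, 35.002, 25.9 and 31.4 CPM on day 35, with groups that overlapped widely. Relative to the epithelial score its mean was 0.24 on day 21 and -0.44 on day 35, and the 5 mice of each day did not overlap. The score itself was 0.72 higher on day 35 (5.15 against 4.43), while the fitted log2 fold change of Gata6 was 0.05. A gene whose level stays the same is therefore lower on this relative scale on day 35. The share of all genes without overlap on this scale was not determined for these days. The other 7 members overlapped on this relative scale. Elf3 was the one member with a higher mean relative level on day 35, at 1.88 against 1.78. No test was made of these relative levels, since day and library series cannot be told apart. In the same untreated mice Tff2 (3.32) and Fabp1 (4.30), products of gastric mucous cells and of enterocytes, rose from day 21 to day 35. They had the largest rises of their lists. Of 11 gastric genes tested, 2 were called higher and 0 lower (median 0.42). Of 12 intestinal or HNF4 target genes, 2 were called higher and 1 lower (median 0.78). Of the fibroblast genes, 5 of 8 fell. Of the other epithelial factors, Cdx2 rose (1.10) and none of the 24 others tested was called.

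**Figure D4:**
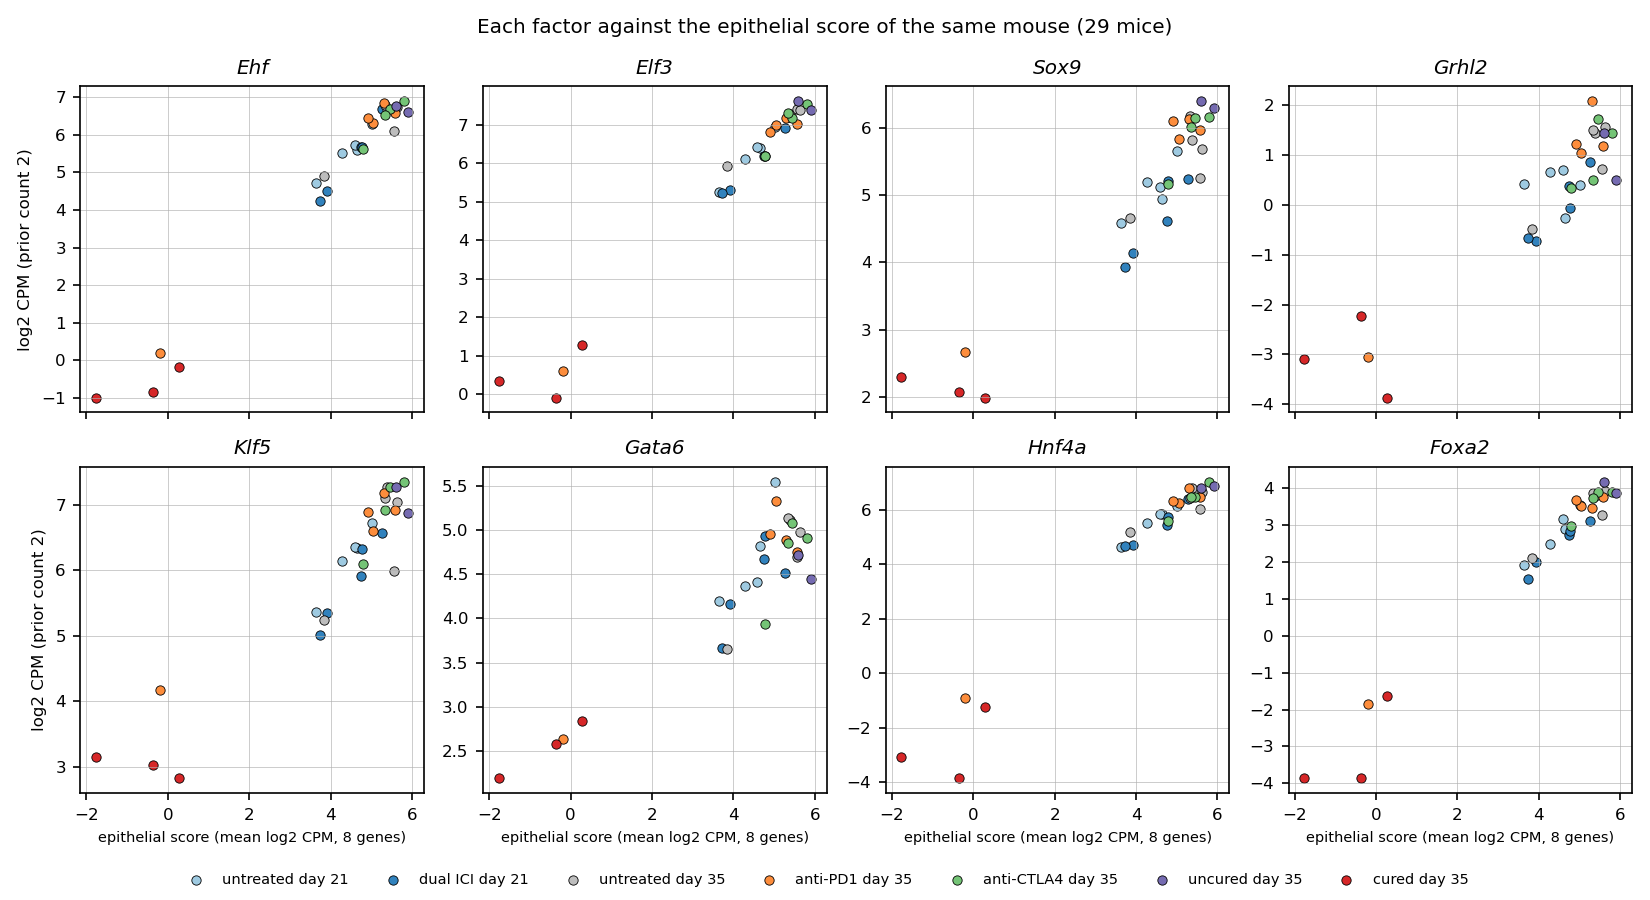
Level of each factor as log2 CPM with a prior count of 2 (y axis) against the epithelial score of the same mouse, the mean log2 CPM of 8 epithelial genes (x axis), in all 29 mice colored by group. The cured mice and anti-PD1 mouse 5 lie at scores below 1, far from the other 25 mice, and among those 25 Gata6 follows the score least closely (r = 0.64).

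Across libraries the members varied together to different degrees. Over the 26 libraries that were not from cured mice, Pearson's r between pairs of members ran from 0.79 to 0.99. These libraries differed in the epithelial score, from -0.19 in anti-PD1 mouse 5 to 5.91 in uncured mouse 5, and all members vary with it. Anti-PD1 mouse 5 stretches the range. Over the 25 libraries without it, r ran from 0.61 to 0.97, with the pairs of Gata6 between 0.61 and 0.76 and the highest pair that of Ehf and Hnf4a. Against the epithelial score over these 25 libraries r was 0.96 for Elf3, 0.94 for Hnf4a, 0.93 for Ehf and Foxa2, 0.87 for Klf5, 0.85 for Sox9, 0.72 for Grhl2 and 0.64 for Gata6. Gata6 had at least 307 counts in each of these libraries and Grhl2 far fewer, and the part of counting noise in these values was not tested. These correlations are descriptions across libraries that differ in tissue content, with no test.

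The genes most like each member were taken as the 3 with the highest r over the 26 libraries, among 16777 genes with at least 10 counts in at least 2 libraries. For Ehf these were Sgpp2, Baiap2l1 and Gucy2c (r = 0.99 each). For Elf3 they were Tmprss4, Grb7 and Cdhr5, and for Foxa2 they were Grb7, Tmprss4 and its paralog Foxa1 (r = 0.99 each). Hnf4a was followed most closely by B4galnt2, Dsp, a desmosome gene, and Dnajc22 (0.99 each). For Klf5 they were Tns3, Plekha7, a gene of the adherens junction, and Golim4 (0.98 to 0.99), and for Sox9 they were Sh3rf1, Plekha7 and Lpar2 (0.97 to 0.98). Grhl2 had Abcg5 and Abcg8, a pair of neighbouring sterol transporter genes, and Akr1c19 (0.95 each). Gata6 had Ptgs1, which encodes a cyclooxygenase, Gata5, another GATA factor of gut endoderm, and Sulf2 (0.93 to 0.95). Without anti-PD1 mouse 5 Ptgs1 (0.92) and Gata5 (0.91) were still among the 3 genes most like Gata6. Ehf kept Baiap2l1, Elf3 and Foxa2 kept Tmprss4 and Grb7, and Klf5 kept Tns3. All named genes were replaced for Hnf4a (by B3gnt3, Abcc3 and Myo7b), Sox9 (by Pcdh1, Cep170b and Cttnbp2) and Grhl2 (by Ncam2, Arhgef26 and Tifa). Most of these lists therefore depend on that mouse.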

How the data were processed

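RNA was extracted from the peritoneum of 29 mice and sequenced, 1 library per mouse. The authors aligned reads to mm10 and counted them per gene, and the deposited table holds raw counts. The submitters' processing notes name STAR 2.7.0f and featureCounts 1.6.4, which differ from the tools in the methods of the study. The strand setting is not given in the sources used here, so overlapping genes on opposite strands could not be separated. Nothing was pooled. Replicates are separate mice.

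Each comparison was fitted in edgeR 4.0.16 (R 4.3.3) on the counts of its groups, with filterByExpr, TMM scaling and the quasi-likelihood test, and p-values were adjusted by the Benjamini-Hochberg method over all genes tested. Calls are at an adjusted p under 0.05. CPM were computed from the counts with TMM-scaled library sizes, and log2 CPM with a prior count of 2. Counting intervals at 95% are exact. The levels relative to the epithelial score were compared by 2-sided exact permutation tests (scipy 1.17.1). Alternatives were DESeq2 1.42.0, its RLE size factors, no filter on low counts, all 29 libraries in the fit, the replicate number as a block, and each mouse left out in turn. Steps across all genes were tested on simulated data. No 2 libraries of a group agreed within sampling noise. Deviations of same-numbered mice from their group means had r of both signs, from -0.69 to 0.69. These values cannot settle whether the numbers pair the mice, so the main fits hold no pairing.

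Members, gene lists and named genes were chosen with earlier results of these data known. The genes named beside the members were those of fixed lists with the largest called changes or highest levels, and the 3 genes with the highest correlation. A gene of these lists is not reported here. Gene positions are from GENCODE annotation of GRCm38, and promoters from RefSeq for GRCm38.p6. The sequence at Gata6 is not reported here. All marker lists were also summed per library. In cured against untreated mice, 4 of 4 simple keratins, 3 of 5 hepatocyte genes, 2 of 8 leukocyte genes and the 1 exocrine pancreas gene tested were called lower, and 3 of 8 fibroblast, 3 of 8 skeletal muscle, 1 of 6 adipocyte and 1 of 6 endothelial genes were called higher.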

Additional observations from a re-analysis of the deposited data

Results flagged for a closer look

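Values far from the rest of their group were sought with Dixon's criterion, and 12 of 80 tests passed it. The members vary together in the same mice, so these tests are not independent and their number cannot be set against chance. Of the 12 that passed, 10 came from anti-PD1 mouse 5. Its log2 CPM was 0.2052 for Ehf (6.32 to 6.84 in the other 4 mice), 0.5986 for Elf3 (6.82 to 7.17), -0.907 for Hnf4a (6.24 to 6.79) and -1.8617 for Foxa2 (3.48 to 3.77). It was also the low one for Sox9 at 2.6707 (5.84 to 6.14), Klf5 at 4.1769 (6.60 to 7.18), Gata6 at 2.6352 (4.75 to 5.33) and Grhl2 at -3.0556 (1.04 to 2.09). Relative to its epithelial score, the same mouse was high for Klf5 at 4.3709 (1.34 to 1.99 in the others) and low for Hnf4a at -0.713 (0.90 to 1.49). Its score rests on few counts. Untreated mouse 2 on day 35 was low for Elf3 at a log2 CPM of 5.933 (7.19 to 7.39 in the others). Anti-CTLA4 mouse 2 was low for Sox9 at 5.1734 (6.03 to 6.16). The summed level of skeletal muscle genes was 191888 CPM in anti-PD1 mouse 5 and 153552 CPM in untreated mouse 2, and its part in these values was not tested.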

How the results depend on the processing

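The 8 calls in cured against untreated mice and in uncured against cured mice held under every alternative that was run. Against uncured mice, the fitted values of Hnf4a, Foxa2 and Grhl2 in cured mice also rested on single mice, with log2 fold changes of 11.90 and 11.79 without cured mouse 2 and 6.04 without cured mouse 3. The number of genes called in cured against untreated mice was 4016 with the replicate block and ran from 4491 (without cured mouse 3) to 9388 (without untreated mouse 2). In uncured against untreated mice DESeq2 called 17 genes. On day 21, dual ICI gave 492 genes in DESeq2, 209 with the block and 6 (without untreated mouse 5) to 119 without 1 mouse. In untreated mice over time, DESeq2 gave 3127 genes, leaving out both untreated mice named in the report gave 5639, and leaving out 1 mouse gave 654 (without day 21 mouse 5) to 4915 (without day 35 mouse 2). Of the members, 1 was called with the block (Elf3), 8 without both mice and 0 to 6 without 1 mouse. DESeq2 called 45 genes for all dual ICI mice and 1 for the interaction. No paired fit was possible for uncured against cured mice because they share no replicate number, and the block changed no other call of a member.

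Members that were not called changed sign in some fits, in none of them with a call. With the replicate block, log2 fold changes were -0.0254 (Ehf) and -0.0835 (Klf5) in uncured, -0.0613 (Sox9) and -0.20 (Grhl2) in anti-PD1 and 0.0815 (Elf3), 0.165 (Grhl2) and 0.0250 (Gata6) in anti-CTLA4 mice. Elf3 under anti-CTLA4 was 0.00538 in DESeq2, 0.00348 with RLE size factors, 0.000672 with no filter and 0.00549 with all 29 libraries. Leaving out 1 mouse gave ranges that crossed 0. In uncured mice Grhl2 ran from -0.66 to 0.31. In anti-PD1 mice the ranges were -0.36 to 0.17 (Ehf), -0.044 to 0.40 (Sox9), -0.36 to 0.32 (Grhl2), -0.28 to 0.19 (Klf5), -0.26 to 0.19 (Gata6), -0.39 to 0.14 (Hnf4a) and -0.43 to 0.084 (Foxa2). In anti-CTLA4 mice they were -0.10 to 0.31 (Ehf), -0.19 to 0.21 (Elf3), -0.30 to 0.17 (Grhl2), -0.24 to 0.13 (Gata6), -0.10 to 0.35 (Hnf4a) and -0.070 to 0.31 (Foxa2). On day 21 they were -0.49 to 0.20 (Ehf) and -0.46 to 0.047 (Hnf4a), over time -0.063 to 0.32 (Gata6), and for the interaction -0.32 to 0.67 (Grhl2) and -0.21 to 0.23 (Gata6).

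Relative to the epithelial score, keratins as the reference gave -0.23 (Ehf) and -0.14 (Foxa2) under anti-PD1 and 0.0415 (Ehf) and 0.0214 (Hnf4a) under anti-CTLA4, and a prior count of 0.5 gave -0.000865 for Hnf4a in uncured mice. Without 1 mouse the ranges were -0.082 to 0.25 (Ehf) and -0.37 to 0.18 (Hnf4a) under anti-PD1. Under anti-CTLA4 they were -0.14 to 0.091 (Ehf), -0.18 to 0.066 (Hnf4a), -0.00808 to 0.28 (Sox9), -0.35 to 0.019 (Grhl2), -0.047 to 0.32 (Klf5) and -0.089 to 0.12 (Foxa2). In uncured mice they were -0.15 to 0.13 (Hnf4a), -0.40 to 0.074 (Ehf), -0.42 to 0.14 (Elf3), -1.22 to 0.055 (Grhl2), -0.41 to 0.30 (Klf5) and -0.27 to 0.35 (Foxa2). Of the relative levels, 320 values kept sign and side of the threshold and 32 changed sign. The cause of these changes was not tested. Depth limits Grhl2 in every group and Hnf4a and Foxa2 in cured mice, where counts were few.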
